A study of Homo sapiens with 6 samples.

Results

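DNA replication and nucleotide supply were examined through 41 genes, chosen by name for the step they serve, with earlier results of these data known. All 41 were found by symbol among the 35554 genes of the deposited table, and all 41 passed the filter on low counts. Expression was compared between parental LNCaP cells (n = 3 flasks) and enzalutamide-resistant LNCaP cells, called LNCaP-enzaR here (n = 3 flasks). LNCaP is an established line from a metastatic prostate carcinoma that grows in response to androgens, and enzalutamide is a drug that blocks the androgen receptor. Parental cells were not selected with drug, and the methods describe LNCaP-enzaR as grown out of LNCaP under continuous enzalutamide and then kept on a lower dose. LNCaP-enzaR is thus 1 line with 1 selection history, and p-values measure the spread between flasks of a line and not between separately selected lines. The labels describe flasks of both lines harvested before they were full, and do not give whether they held drug on that day. The methods for RNA sequencing describe plates of cells starved of serum before treatment with recombinant proteins, and whether any starvation applied to these 6 libraries is not stated.

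Replication begins when the origin recognition complex, CDC6 and CDT1 load the ring of MCM2 to MCM7 onto DNA before S phase, a step called licensing. The kinase CDC7 with its activator DBF4 then recruits CDC45 and the GINS complex, which turn the ring into the active CMG helicase. Polymerase alpha with primase lays down primers, polymerases epsilon and delta extend them on the clamp PCNA, which the RFC complex loads, RPA coats single-stranded DNA, and FEN1 and LIG1 finish the lagging strand. Ribonucleotide reductase (RRM1 with RRM2) and thymidylate synthase (TYMS) supply the deoxynucleotides. Many of these genes are transcribed as cells enter S phase, under E2F factors that the retinoblastoma family of pocket proteins restrains.

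Libraries held 77759122 to 98616465 counts, and the lowest count of any of the 41 genes in any library was 212. Levels are given as CPM, counts scaled to a library of 1000000 counts after adjustment by the trimmed mean of M-values (TMM). Transcripts of the mitochondrial genome took 6.87% ± 0.174 of the parental and 15.1% ± 0.415 of the LNCaP-enzaR counts (SD, n = 3 each). Without those transcripts in the fit, as many of the 41 genes were lower past the threshold (38). All 10 prostate luminal markers that were listed were expressed, summing to 4496 to 5362 CPM over the 6 libraries, with the LNCaP-enzaR libraries lowest. The 4 leukocyte markers summed to at most 0.184 CPM in any library, the 3 basal markers to at most 1.71 CPM, the 3 endothelial markers, nearly all of it VWF, to at most 6.101 CPM and the 4 fibroblast markers in the table, most of it COL1A1, to at most 16.3 CPM.

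LNCaP-enzaR cells expressed the replication genes at well under the parental level. A gene was called where it changed at least 1.5-fold with a Benjamini-Hochberg adjusted p, from the quasi-likelihood test of edgeR, of at most 0.05. By that threshold 38 of the 41 genes fell, against 19.5% of all 19711 genes tested, where 42.7% changed in either direction. With the adjusted p alone, all 41 were lower, against 32.8% of all genes. None passed the threshold of adjusted p and fold in the higher direction, where 23.3% of all genes did, by edgeR (0 genes, and 0 at an unadjusted p under 0.05) or by DESeq2 (0 genes). The fall was at least 2-fold for 36 of the 41, against 11.8% of all genes, and the median log2 fold change was −1.57 against 0.01 over all genes. Every LNCaP-enzaR library lay below every parental library for all 41 genes, a pattern held by 35.0% of all genes. Summed over the 41 genes, the level was 4740, 4738 and 4755 CPM in the parental libraries and 1860, 1803 and 1865 CPM in the LNCaP-enzaR libraries, which is 38.8% of the parental mean. Since whole cultures were sequenced, fewer cells in S phase and less RNA per cell cannot be told apart.

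**Figure D1:**
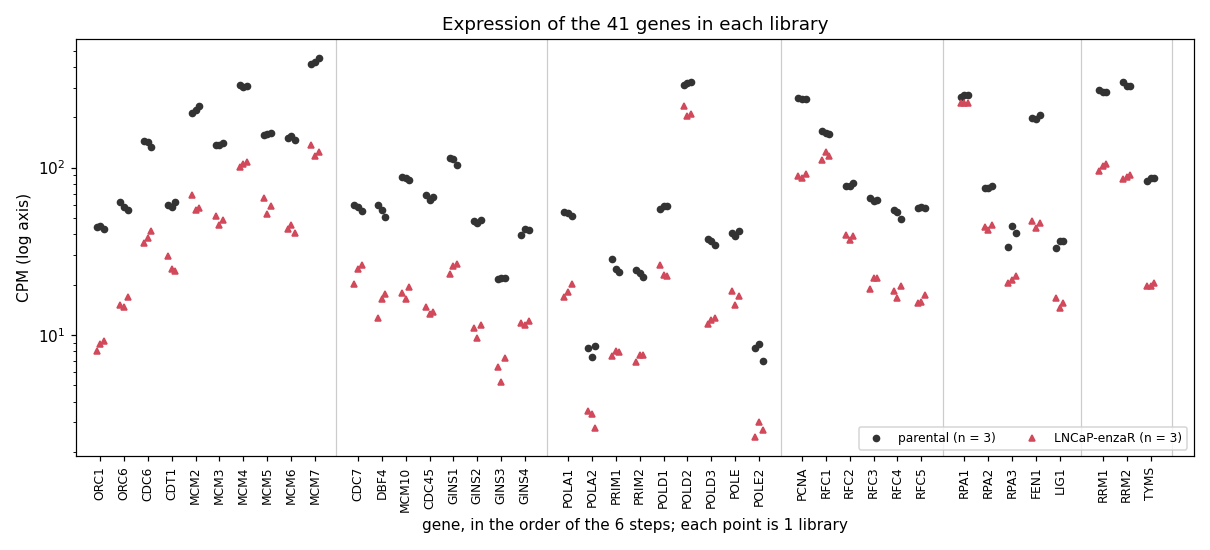
Expression of the 41 genes in each library, in CPM on a log axis, ordered by the 6 steps from licensing to nucleotide synthesis. Black circles are the 3 parental and red triangles the 3 LNCaP-enzaR libraries. The 2 groups are apart for every gene, narrowly for RPA1 (264 CPM in the lowest parental library against 244 CPM in the highest LNCaP-enzaR library).

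The genes are described by step. Origin licensing (10 of 10 genes lower past the threshold, median log2 fold change −1.79), origin firing and CMG assembly (8 of 8, −1.98) and deoxynucleotide synthesis (3 of 3, −1.83) had no gene short of the threshold. The polymerase and primase genes (8 of 9, −1.54), the clamp and its loader (5 of 6, −1.54) and single-strand binding with Okazaki fragment joining (4 of 5, −0.88) each had 1, namely POLD2, RFC1 and RPA1. As summed CPM, licensing genes stood in LNCaP-enzaR at 31.0% of the parental mean, firing genes at 25.6%, nucleotide synthesis at 30.5%, clamp and loader at 44.5%, polymerases and primase at 53.9% and single-strand binding and joining at 59.8%. The last 3 sums rest in part on the genes short of the threshold. In parental libraries, POLD2 held 318 of 571 CPM of its step, RPA1 269 of 621 and RFC1 162 of 674. In LNCaP-enzaR libraries, POLD2 held 216 of 308 CPM, RPA1 244 of 371 and RFC1 117 of 300. Steps were not tested against each other.

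**Figure D2:**
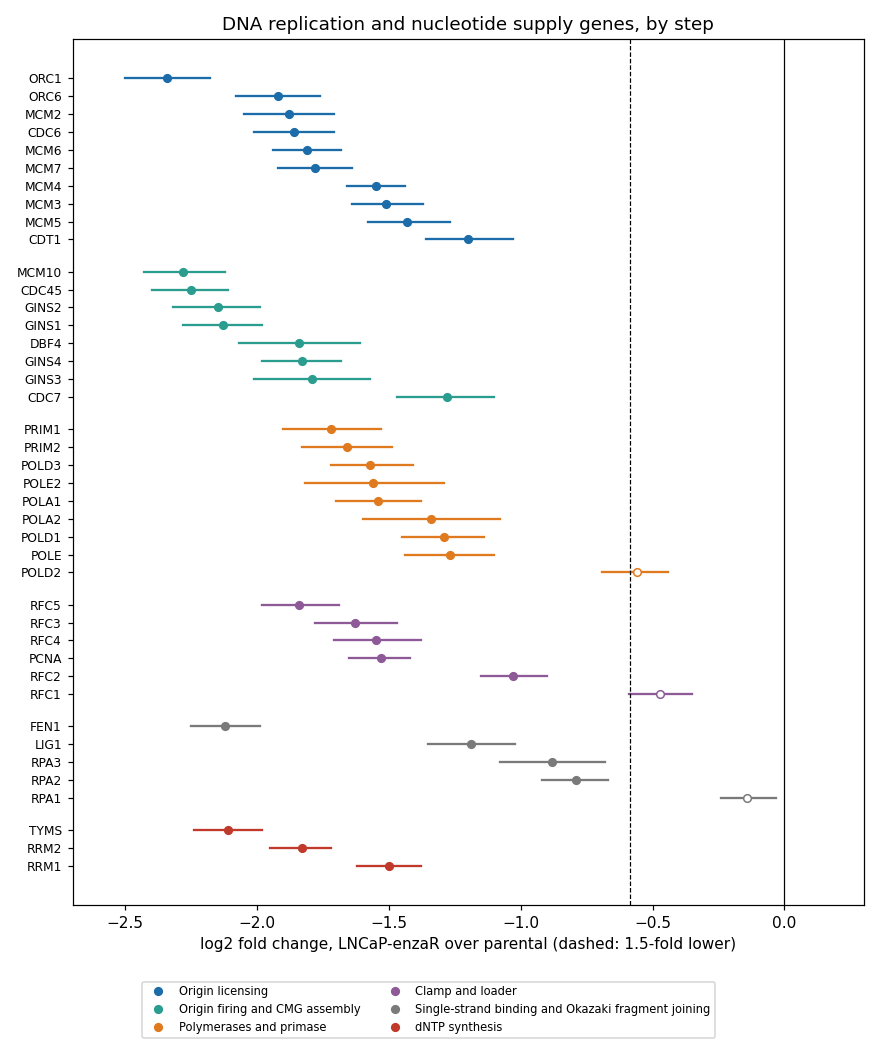
Log2 fold change of each gene, LNCaP-enzaR over parental, with its 95% confidence interval from the edgeR fit, grouped by step. Filled points are past the threshold and open points are not. The 3 open points are POLD2 (−0.56), RFC1 (−0.47) and RPA1 (−0.14), while ORC1 (−2.34) and MCM10 (−2.28) lie furthest from 0.

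Promoters of the 41 genes were read for words bound by cell cycle regulators, a feature of sequence that does not depend on the counts here. RefSeq (GRCh38.p14) gave 44 promoter windows, 250 bases before to 50 after a start, for 35 of the 41 genes. No window was matched for MCM4, MCM5, GINS4, POLD3, RPA2 and RPA3. A word of the E2F consensus (TTTCCCGC, TTTCGCGC, TTTGCCGC or TTTGGCGC, either strand) was present in 18 of the 44 windows, or 40.9%, belonging to 18 genes, against 3.30% of all 34943 windows and 4.08% of those of protein-coding genes. The same words were in 26.1% of the windows of E2F and pocket proteins, 8 of the 32 windows of further origin and fork factors, 21.4% of those of replication-coupled chromatin genes, 13.3% of repair and translesion polymerases, 11.8% of mitosis genes and 8.11% of further nucleotide supply, the lists described further on. The word TTTGAA of the cell cycle homology region, which is known from promoters of mitotic genes, was in 2 of the 44 windows (4.55%), against 15.2% of all windows and 58.8% of the 17 windows of the mitosis list. It was in 12.5% of windows of protein-coding genes, 34.8% of those of E2F and pocket proteins and 5.41% to 13.3% over the remaining lists. CCAAT boxes (CCAAT) were in 56.8% of the 44 windows, against 34.6% of all windows, 34.7% of those of protein-coding genes, 71.4% of the chromatin list and 76.5% of the mitosis list. They were in 56.2% of the windows of further origin and fork factors and in 26.7% to 32.4% over the remaining lists. GC boxes (GGGCGG), which can share bases with an E2F word, were in 70.5%, against 44.9% of all windows, 56.2% for protein-coding genes and 65.2% to 92.9% over the 6 lists, 4 of which were above the 41 genes. These shares are descriptions of letters in a window and were not tested.

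The 160 bases before the start are shown for 5 genes of 4 steps whose E2F words lie there, outside the annotated exons of the same gene. Exons of other genes were not checked there. Sequences are written 5′ to 3′ on the strand of the gene, with the words in capitals.
MCM6 (chr2:135876444-135876603, minus strand): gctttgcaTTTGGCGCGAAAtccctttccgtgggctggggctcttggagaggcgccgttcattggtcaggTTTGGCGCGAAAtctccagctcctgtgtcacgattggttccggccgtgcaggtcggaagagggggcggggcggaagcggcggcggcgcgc
CDT1 (chr16:88803629-88803788, plus strand): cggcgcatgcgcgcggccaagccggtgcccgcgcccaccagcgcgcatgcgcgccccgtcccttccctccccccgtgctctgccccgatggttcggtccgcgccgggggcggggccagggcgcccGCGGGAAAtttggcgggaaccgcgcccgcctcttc
GINS2 (chr16:85688955-85689114, minus strand): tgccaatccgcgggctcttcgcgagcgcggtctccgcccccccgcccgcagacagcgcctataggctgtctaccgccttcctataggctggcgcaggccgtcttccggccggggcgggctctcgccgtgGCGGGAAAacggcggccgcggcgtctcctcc
PCNA (chr20:5126623-5126782, minus strand): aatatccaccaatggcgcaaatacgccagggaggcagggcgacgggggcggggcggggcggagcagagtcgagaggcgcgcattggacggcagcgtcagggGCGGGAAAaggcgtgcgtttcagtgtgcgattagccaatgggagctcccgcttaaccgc
TYMS (chr18:657493-657652, plus strand): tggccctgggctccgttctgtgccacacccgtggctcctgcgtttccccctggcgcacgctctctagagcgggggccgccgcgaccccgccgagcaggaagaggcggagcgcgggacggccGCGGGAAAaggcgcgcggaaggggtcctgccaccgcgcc
In MCM6, 2 pairs of words overlap head to head, starting 152 and 90 bases before the start. The word starts 35 bases before the start of CDT1, 31 before that of GINS2, 59 before that of PCNA and 39 before that of TYMS. Genes with an E2F word in a window (n = 18) had a median log2 fold change of −1.59, ranging from −2.15 to −1.19. Those without one (n = 17) had −1.72, ranging from −2.34 to −0.14. The genes without the word held both ends of the range. They included the 3 genes short of the threshold and also ORC1 (−2.34), MCM10 (−2.28) and CDC45 (−2.25), the lowest of the 41.

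Among the licensing factors, the largest fall was that of ORC1, the subunit of the origin recognition complex whose abundance follows the cell cycle (ENSG00000085840.13, chromosome 1, 52372829 to 52404423, GRCh38). ORC1 was measured at 44.3, 44.7 and 43.04 CPM in the parental libraries and 8.01, 8.89 and 9.17 CPM in the LNCaP-enzaR libraries, 5.06-fold lower in LNCaP-enzaR (log2 fold change −2.34 with an SE of 0.074, adjusted p = 3.11e-12 by edgeR). ORC6 read 62.5, 57.9 and 55.5 CPM in the parental libraries and 14.996, 14.7 and 16.8 CPM in the LNCaP-enzaR libraries (log2 fold change −1.92). ORC6 is the smallest subunit of the same complex, and its 2 groups of libraries did not overlap either. CDC6, the loader of the MCM ring, went from 139.5 ± 6.699 to 38.3 ± 3.16 CPM (SD, n = 3 each, −1.86). The smallest fall of the step was that of CDT1, its partner in loading (ENSG00000167513.9, chromosome 16, 88803789 to 88809258), which was at 59.4, 57.9 and 61.9 CPM in the parental libraries and 29.4, 24.7 and 24.1 CPM in the LNCaP-enzaR libraries (−1.20, SE 0.078, adjusted p = 6.02e-09). Of its LNCaP-enzaR libraries, replicate 1 was the highest, yet it stood below 57.9 CPM, the lowest parental value.

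The 6 subunits of the MCM ring are needed in equal numbers, and all 6 fell, by log2 fold changes of −1.88 to −1.43. MCM2 was measured at 211, 222 and 235 CPM in the parental libraries and 68.7, 55.8 and 57.2 CPM in the LNCaP-enzaR libraries (−1.88). MCM3 stood at 136, 137 and 139.7 CPM in the parental libraries and 51.7, 45.2 and 48.3 CPM in the LNCaP-enzaR libraries (−1.51). MCM4 gave 310.1, 305 and 306 CPM in the parental libraries and 100.3, 106 and 108 CPM in the LNCaP-enzaR libraries (−1.55). For these 3 genes every LNCaP-enzaR library lay far below the parental range. MCM5 was found at 156, 159.6 and 162 CPM in the parental libraries and 65.4, 52.9 and 59.1 CPM in the LNCaP-enzaR libraries (−1.43). MCM6 was read at 150.4, 154 and 146 CPM in the parental libraries and 42.9, 45.3 and 40.7 CPM in the LNCaP-enzaR libraries (−1.81). MCM7 reached 416, 425 and 453 CPM in the parental libraries and 136, 117 and 125 CPM in the LNCaP-enzaR libraries (−1.78). LNCaP-enzaR replicate 1 was the highest of its group for MCM2, MCM3, MCM5 and MCM7 and the lowest for MCM4. Divided by the length of the canonical transcript, parental levels were 175 CPM per kb for MCM7, 75.5 for MCM4, 64.8 for MCM2, 46.0 for MCM5, 44.8 for MCM3 and 40.0 for MCM6. In LNCaP-enzaR the same scale gave 50.9 CPM per kb for MCM7 and 11.4 to 25.8 for the others, so MCM7 was highest and MCM6 lowest in both lines. MCM2 shares 23.6% of its exonic bases with an opposite-strand transcript that stayed under 1 CPM on average in both lines.

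Origin firing held the step with the lowest median. MCM10, which helps to activate the loaded helicase (ENSG00000065328.17, chromosome 10, 13161558 to 13211110), fell most, and was at 87.7, 86.8 and 84.4 CPM in the parental libraries and 17.7, 16.3 and 19.4 CPM in the LNCaP-enzaR libraries (log2 fold change −2.28, SE 0.071, edgeR adjusted p = 2.87e-12). CDC45, a subunit of the active helicase, went from 66.4 ± 2.503 to 13.9 ± 0.735 CPM (−2.25). The 4 GINS subunits complete that helicase, and their log2 fold changes were −2.13 for GINS1, −2.15 for GINS2, −1.79 for GINS3 and −1.83 for GINS4. GINS2 was measured at 48.2, 46.4 and 48.3 CPM in the parental libraries and 10.95, 9.65 and 11.5 CPM in the LNCaP-enzaR libraries. GINS3 was at 21.7, 21.98 and 21.96 CPM in the parental libraries and 6.43, 5.24 and 7.28 CPM in the LNCaP-enzaR libraries. GINS3 and GINS4 share 10.9% and 23.4% of their exonic bases with other transcripts, each of which averaged under 1 CPM in both lines. The smallest fall was that of the kinase CDC7 (ENSG00000097046.13, chromosome 1, 91500851 to 91525764), which was at 59.5, 58.5 and 54.9 CPM in the parental libraries and 20.1, 24.6 and 26.2 CPM in the LNCaP-enzaR libraries (−1.28, SE 0.087, adjusted p = 9.39e-09). DBF4 was at 60.1, 55.9 and 50.8 CPM in the parental libraries and 12.6, 16.4 and 17.6 CPM in the LNCaP-enzaR libraries (−1.84). For both the kinase and its activator, LNCaP-enzaR replicate 1 was the lowest library.

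Among the genes that make DNA, the primase subunits had the lowest log2 fold changes. PRIM1, its catalytic subunit (ENSG00000198056.15, chromosome 12, 56731296 to 56752374), was at 28.5, 24.6 and 23.8 CPM in the parental libraries and 7.47, 7.99 and 7.95 CPM in the LNCaP-enzaR libraries (log2 fold change −1.72, SE 0.086, edgeR adjusted p = 3.61e-10). PRIM2 was at 24.3, 23.5 and 22.2 CPM in the parental libraries and 6.86, 7.63 and 7.64 CPM in the LNCaP-enzaR libraries (−1.66). PRIM2 is the regulatory subunit of primase. PRIM1 has 19.1% of its exonic bases in exons of other genes, the main one of which averaged under 0.1 CPM in both lines. POLA1 was measured at 54.3, 53.8 and 51.6 CPM in the parental libraries and 16.8, 18.1 and 20.1 CPM in the LNCaP-enzaR libraries (−1.54). POLA2 was at 8.38, 7.33 and 8.64 CPM in the parental libraries and 3.500, 3.37 and 2.76 CPM in the LNCaP-enzaR libraries (−1.34). POLA1 is the catalytic subunit of polymerase alpha and POLA2 its regulatory subunit. Per length, POLA2 was the least expressed of the 41 genes in both lines (2.29 against 0.906 CPM per kb, parental against LNCaP-enzaR), and 21.3% of its exonic bases lie in other genes' exons.

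The leading-strand polymerase epsilon fell in both subunits listed. POLE was measured at 40.6, 39.1 and 41.9 CPM in the parental libraries and 18.2, 15.03 and 17.1 CPM in the LNCaP-enzaR libraries (−1.27), and POLE2, an accessory subunit, stood at 8.36, 8.77 and 6.96 CPM in the parental and 2.46, 3.02 and 2.71 CPM in the LNCaP-enzaR libraries (−1.56). POLE carries the catalytic activity, and the groups did not overlap for either gene. In polymerase delta, the catalytic subunit POLD1 went with the rest of the step. POLD1 was measured at 56.5, 59.2 and 59.3 CPM in the parental libraries and 26.3, 22.7 and 22.6 CPM in the LNCaP-enzaR libraries (−1.29). POLD3 was at 37.4, 36.2 and 34.3 CPM in the parental libraries and 11.6, 12.3 and 12.6 CPM in the LNCaP-enzaR libraries (−1.57). POLD3 is an accessory subunit. POLD2, the subunit that links POLD1 to POLD3 (ENSG00000106628.12, chromosome 7, 44114680 to 44124358), did not pass the fold limit. POLD2 was at 310.0, 321 and 323 CPM in the parental libraries and 232, 205 and 210.0 CPM in the LNCaP-enzaR libraries, with log2 fold change −0.56 (SE 0.058, 95% confidence interval −0.69 to −0.44, adjusted p = 8.43e-07). That is 1.48-fold, and POLD2 passed the limit without LNCaP-enzaR replicate 1 (−0.61) and with library totals in place of TMM (−0.60). Per length, POLD2 held 198 against 134 CPM per kb and POLD1 17.0 against 6.95, parental against LNCaP-enzaR.

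PCNA, the sliding clamp (ENSG00000132646.11, chromosome 20, 5114953 to 5126626), had the smallest spread between parental flasks of the 41 genes relative to its level. PCNA was measured at 259, 257 and 257 CPM in the parental libraries and 88.7, 86.5 and 92.2 CPM in the LNCaP-enzaR libraries (log2 fold change −1.53, SE 0.053, adjusted p = 6.96e-12 by edgeR). The loader has 1 large and 4 small subunits. All 4 small subunits fell, with log2 fold changes of −1.84 for RFC5, −1.63 for RFC3, −1.55 for RFC4 and −1.03 for RFC2. RFC5 was measured at 57.4, 58.5 and 57.2 CPM in the parental libraries and 15.5, 15.7 and 17.2 CPM in the LNCaP-enzaR libraries. RFC4 was at 55.8, 53.98 and 49.4 CPM in the parental libraries and 18.2, 16.6 and 19.7 CPM in the LNCaP-enzaR libraries. RFC5 shares 10.7% of its exonic bases with other genes, including 5.72% with WSB2 on the opposite strand (log2 fold change −0.18). The large subunit RFC1 (ENSG00000035928.16, chromosome 4, 39287456 to 39366375) stayed short of the fold limit, and RFC1 was at 165, 162 and 159 CPM in the parental libraries and 111, 124 and 117 CPM in the LNCaP-enzaR libraries. Its log2 fold change of −0.47 (SE 0.057, 95% confidence interval −0.59 to −0.35, adjusted p = 4.55e-06) stayed short of the 1.5-fold limit in all 15 alternatives run, which gave −0.51 to −0.37.

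Single-strand binding held the highest log2 fold change of the 41 genes. RPA1, the large subunit of RPA, which binds the DNA (ENSG00000132383.12, chromosome 17, 1829702 to 1900082), was at 264, 270.1 and 273 CPM in the parental libraries and at 244, 244 and 244 CPM in the LNCaP-enzaR libraries. The log2 fold change was −0.14 (SE 0.049, 95% confidence interval −0.24 to −0.03, edgeR adjusted p = 0.0214), which with upper-quartile scaling was −0.04 with an adjusted p of 0.514 (the adjusted p ranged from 0.00240 to 0.514 over the alternatives). The small subunits RPA2 (−0.79) and RPA3 (−0.88) did fall past the threshold. RPA2 was measured at 75.7, 75.3 and 77.96 CPM in the parental libraries and 44.3, 42.4 and 45.3 CPM in the LNCaP-enzaR libraries. RPA3 was at 33.4, 44.5 and 40.7 CPM in the parental libraries and 20.5, 21.4 and 22.4 CPM in the LNCaP-enzaR libraries. RPA3 was the most uneven of the 41 genes between parental flasks relative to its level, with replicate 1 the lowest. FEN1, which removes primer flaps, and LIG1, which seals nicks, both fell. FEN1 was measured at 199, 196 and 207 CPM in the parental libraries and 47.9, 43.8 and 46.7 CPM in the LNCaP-enzaR libraries (−2.12, SE 0.058, adjusted p = 8.52e-13), the smallest adjusted p of the 41 genes. LIG1 went from 35.3 ± 2.02 to 15.5 ± 1.11 CPM (−1.19).

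All 3 genes of deoxynucleotide synthesis fell. TYMS, which makes the precursor of dTTP (ENSG00000176890.16, chromosome 18, 657653 to 673578), was at 83.3, 87.1 and 86.5 CPM in the parental libraries and 19.6, 19.6 and 20.3 CPM in the LNCaP-enzaR libraries (log2 fold change −2.11, SE 0.060, adjusted p = 1.19e-12 by edgeR). The exons of ENOSF1 on the opposite strand cover 39.9% of its exonic bases, and ENOSF1 itself went from 23.2 to 26.6 CPM on average (0.20), so reads of the 2 genes may be mixed. RRM1 was measured at 289, 282 and 283 CPM in the parental libraries and 95.2, 102 and 105 CPM in the LNCaP-enzaR libraries (−1.50). RRM2 was at 323, 307 and 306 CPM in the parental libraries and 84.96, 87.9 and 89.7 CPM in the LNCaP-enzaR libraries (−1.83). RRM1 is the large subunit of ribonucleotide reductase (ENSG00000167325.15, chromosome 11, 4094707 to 4138932) and RRM2 its small subunit in dividing cells (ENSG00000171848.16, chromosome 2, 10120698 to 10211725). For both subunits the libraries of each line lay close together and the lines were far apart.

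Unequal movement within complexes was examined as the log2 ratio of 2 genes inside a library, which does not depend on the scaling of libraries. The 14 pairs were picked with earlier results of these data known, and 3 of them set POLD2, RFC1 and RPA1 against a partner that fell, so how many pairs moved apart is a description and no result about these complexes. Where the libraries of the 2 lines did not overlap, the two-sided exact permutation test gave p = 0.10, the smallest that 3 libraries against 3 allow (0.13 adjusted over the 14). The widest change was in ribonucleotide reductase. RRM2B, a small subunit that serves repair and resting cells, is not one of the 41 genes and rose, with 93.2, 88.6 and 85.8 CPM in the parental libraries and 144, 185 and 166 CPM in the LNCaP-enzaR libraries (0.89, SE 0.078, edgeR adjusted p = 1.59e-07). The log2 ratio of RRM2B to RRM2 was −1.79, −1.79 and −1.83 in parental and 0.76, 1.07 and 0.89 in LNCaP-enzaR libraries, a difference of 2.71. RRM2 to RRM1 moved the other way, from 0.16, 0.12 and 0.11 to −0.16, −0.21 and −0.23 (difference −0.33).

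CDT1 and its inhibitor geminin (GMNN) came next. GMNN was at 60.7, 58.2 and 55.8 CPM in the parental libraries and 11.2, 10.4 and 10.9 CPM in the LNCaP-enzaR libraries (−2.43). Geminin blocks relicensing by binding CDT1. The log2 ratio of CDT1 to GMNN went from −0.03, −0.01 and 0.15 to 1.39, 1.25 and 1.15 (difference 1.23). RFC1 to RFC4 differed by 1.08, RPA1 to RPA3 by 0.74 and POLD2 to POLD1 by 0.73, each higher in all 3 LNCaP-enzaR libraries. The log2 ratio of POLD2 to POLD1 was 2.45, 2.44 and 2.45 in parental and 3.14, 3.17 and 3.22 in LNCaP-enzaR libraries. Smaller differences were found for ORC6 to ORC1 (0.42), GINS3 to GINS2 (0.35), MCM7 to MCM2 (0.10), POLD3 to POLD1 (−0.27) and DBF4 to CDC7 (−0.56). Libraries overlapped for POLE2 to POLE (−0.28, p = 0.20), POLA2 to POLA1 (0.20, p = 0.40) and PRIM2 to PRIM1 (0.05, p = 0.50; two-sided exact permutation tests).

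**Figure D3:**
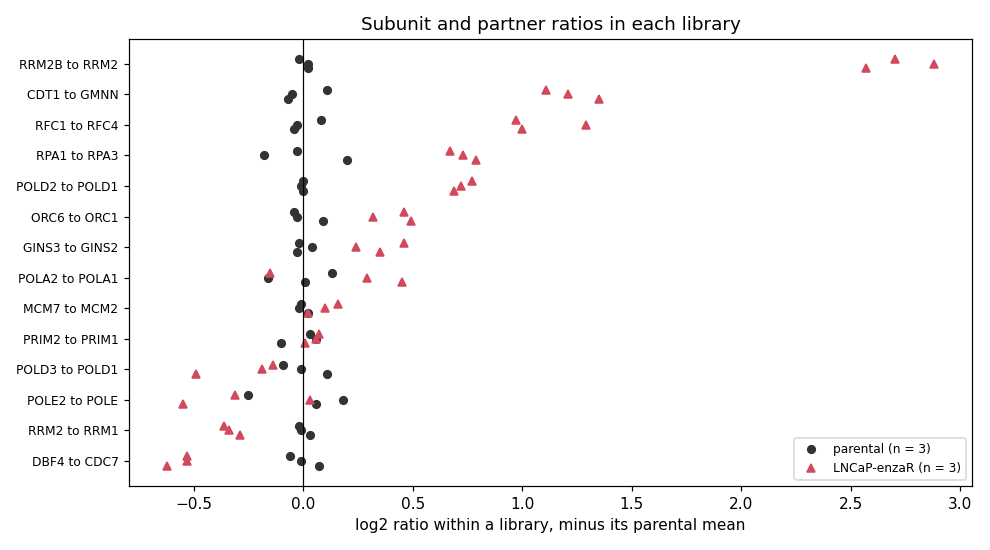
Log2 ratio of 2 genes within each library, minus the parental mean of that ratio, for 14 subunit or partner pairs. Black circles are parental and red triangles LNCaP-enzaR libraries (n = 3 each). The ratios of RRM2B to RRM2 (2.71) and CDT1 to GMNN (1.23) lie furthest to the right and that of DBF4 to CDC7 (−0.56) furthest to the left, while the groups overlap for PRIM2 to PRIM1 and 2 others.

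Other genes of the pathway, listed by role, were compared with the 41. Of 30 further origin and fork factors, 19 were lower and 1 higher past the threshold (median log2 fold change −0.92). GMNN (−2.43) and the nuclease DNA2 (−2.31) had the lowest values, and DNA2 was at 33.7, 30.9 and 32.6 CPM in the parental libraries and 5.46, 6.601 and 7.45 CPM in the LNCaP-enzaR libraries. RNASEH2C, a subunit of the nuclease that removes RNA from DNA, did not pass (0.20, adjusted p = 0.0681). The highest value was that of POLD4, the smallest subunit of polymerase delta, which was at 5.06, 4.94 and 5.32 CPM in the parental libraries and 14.03, 10.6 and 9.88 CPM in the LNCaP-enzaR libraries (1.17, SE 0.125, edgeR adjusted p = 1.22e-06), with 21.3% of its exonic bases in exons of other genes. Polymerase delta thus held subunits that fell (POLD1, POLD3), one short of the limit (POLD2) and one that rose (POLD4).

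Nucleotide supply beyond the 3 genes was more mixed. Of 31 genes, 10 were lower and 2 higher past the threshold, with a median log2 fold change of −0.48. DTYMK, which phosphorylates dTMP, fell from 77.9 ± 2.94 to 21.97 ± 0.8004 CPM (SD, n = 3 each, −1.83). The highest values were those of TK2, the mitochondrial thymidine kinase (31.9 ± 1.15 to 77.96 ± 1.74 CPM, 1.29), and RRM2B (0.89). TK1, the cytosolic thymidine kinase of dividing cells, was named after its value was seen and fell from 204 ± 8.65 to 76.1 ± 9.97 CPM (−1.42), opposite to TK2. TK2 has 20.1% of its exonic bases in other genes' exons.

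DNA polymerases of repair and of damage bypass had a median log2 fold change of −0.11 over 13 genes, of which 4 were lower and 1 higher past the threshold. POLQ (−1.24), which joins broken ends, and REV1 (−1.20), a bypass polymerase, had the lowest values. POLN (1.19, adjusted p = 0.0340 by edgeR) had the highest at an average under 1 CPM in both lines. POLN has 49.4% of its exonic bases in other genes' exons. Without any 1 library other than LNCaP-enzaR replicate 1, its adjusted p was 0.0527 to 0.160. POLM, an end-joining polymerase, followed (0.34, adjusted p = 0.00621). Replication-coupled chromatin genes were lower past the threshold in 8 of 10 cases, with a median of −1.25. UHRF1, which carries DNA methylation through replication, went from 86.7 ± 3.15 to 14.8 ± 0.728 CPM (−2.55), and ASF1B, a histone chaperone, from 95.02 ± 2.15 to 22.4 ± 2.06 CPM (−2.09). The histone-binding proteins RBBP4 (−0.54) and RBBP7 (−0.24) were the 2 short of the fold limit.

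E2F factors, pocket proteins and their partners were lower past the threshold in 10 of 17 cases (median −0.76). E2F8 (25.6 ± 1.21 to 3.54 ± 0.0778 CPM, −2.85) and E2F7 (−2.32), both repressors that are themselves made in S phase, had the lowest values. LIN37 (0.52, adjusted p = 0.0160), which passed the limit without parental replicate 2 (0.66) or LNCaP-enzaR replicate 2 (0.61), and TFDP2 (0.38, adjusted p = 3.60e-05) had the highest values, both short of the fold limit. LIN37 averaged 1.81 CPM in parental and 2.60 CPM in LNCaP-enzaR libraries, with 54.0% of its exonic bases in other genes' exons. RB1, named after its value was seen, was at 44.6 ± 3.104 and 41.2 ± 6.19 CPM (−0.11, adjusted p = 0.312), and its log2 fold change was 0.01 without LNCaP-enzaR replicate 1. The activator E2F1, also named after its value was seen, fell from 104 ± 4.03 to 44.7 ± 4.62 CPM (−1.22). The mitosis list had 19 of 20 lower and a median of −1.99. MYBL2 (−2.59), a transcription factor, and the proliferation marker MKI67 (−2.45, the same to 2 decimals as BUB1) had its lowest values, and CCNB1 (−1.39) and CDK1 (−0.54), the cyclin and kinase of mitotic entry, its highest. CDK1 went from 275 ± 12.9 to 188 ± 19.3 CPM and was the 1 gene of the list short of the fold limit, which it passed without LNCaP-enzaR replicate 3 (−0.59).

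**Figure D4:**
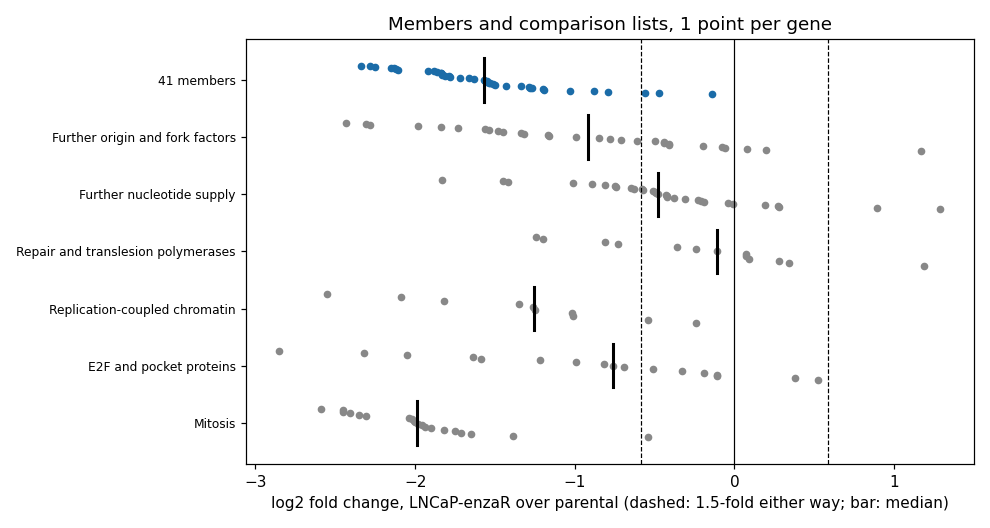
Log2 fold change of every gene of the 41 and of 6 comparison lists, 1 point per gene, with the median of each list as a black bar and 1.5-fold in either direction as dashed lines. Medians run from −1.99 for mitosis and −1.57 for the 41 genes to −0.48 for further nucleotide supply and −0.11 for repair and translesion polymerases.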

How the data were processed

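Polyadenylated RNA of 6 flasks was sequenced as paired ends by the authors, who trimmed reads with Cutadapt, aligned them to GRCh38 with STAR and GENCODE v38 genes, and counted them per gene with featureCounts. The deposited values are raw counts per gene, not normalized. Whether counting used strand, multiply mapped reads, or fragments is not given in the sources used here, so values of genes with overlapping exons or with pseudogene copies (11 of the 41 genes have a pseudogene named after them) are uncertain.

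Groups and replicate numbers came from the sample titles. In R 4.3.3, edgeR 4.0.16 was run on the deposited counts of the 19711 genes that filterByExpr retained (99.96% of counts), with TMM scaling and the robust quasi-likelihood test without covariates, with Benjamini-Hochberg adjustment over all genes tested. The threshold was an adjusted p of 0.05 and a fold of 1.5, as in the study's methods, which name DESeq2 (run here as an alternative, version 1.42.0). The SE is the log2 fold change divided by the square root of the F statistic. Ratios of 2 genes had 0.5 counts added to each gene and were tested with SciPy 1.17.1. Transcript lengths and exon overlap came from GENCODE v44, in which 99.8% of the identifiers were found. Coordinates are those of the deposited table. The edgeR step was tested on simulated counts.

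Every one of the 41 genes is named with its log2 fold change. Values per library are given for the lowest and highest gene of each step, genes not lower past the threshold, PCNA, the MCM ring, the 3 nucleotide genes and the genes of the ratios, and of each comparison list the 2 lowest and 2 highest genes are named, except 1 that is not reported here. The genes and lists were chosen with earlier results of these data known. Alternatives to the fit were other scalings (RLE, library totals, upper quartile), DESeq2, other gene filters (none, a minimum of 10 counts per library, protein-coding genes, all but mitochondrial genes), a replicate block, omission of each library in turn and other fold limits, besides 1 count added in ratios and promoter windows without the 50 bases after the start.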

Additional observations from a re-analysis of the deposited data

How the results depend on the processing

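Of the 41 genes, 40 kept their direction and their side of the threshold in all 15 alternatives run, and POLD2 (−0.56) passed the fold limit in 2 of them, with library totals (−0.60) and without LNCaP-enzaR replicate 1 (−0.61). The number lower past the threshold was 38, 41 with no minimum fold and 36 at a fold of at least 2, where all genes past it numbered 13074 and 5561 in place of 8425. The median of the 41 (−1.57) was −1.60 with library totals, −1.46 with upper-quartile scaling, −1.54 with a minimum of 10 counts per library, −1.54 among protein-coding genes and −1.64 to −1.55 with any 1 library omitted. Upper-quartile scaling moved all genes by a median of 0.10. Among repair and translesion polymerases, the 1 higher call, POLN, gave 0 calls with no filter, with the minimum of 10 counts and with the replicate block, and 0 to 1 when 1 library was left out. Among E2F and pocket proteins, 1 gene (LIN37, 0.62) was higher with upper-quartile scaling, and 0 to 1 when 1 library was left out, in place of 0. RB1 (−0.11) was −0.20 to 0.01 with any 1 library omitted, above 0 without LNCaP-enzaR replicate 1 alone. Of the 27 genes that the naming rule and the later choices gave outside the 41, 23 kept call and direction in all alternatives run, the others being POLN, LIN37, CDK1 and RB1. The cause was not tested. The E2F word was in 29.5% of windows without the 50 bases after the start. Of the 14 ratios, each kept its direction in the alternatives run, and no ratio can pass 0.05 with 3 libraries against 3.

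The sample titles do not say whether replicate numbers pair the libraries. Deviations of libraries with 1 number from their groups were not correlated (r from −0.065 to −0.00041 over genes). With 3 libraries per group this cannot exclude a pairing. The replicate block called 8212 genes, of which 8174 were also called without it, 38 of the 41 were lower, the median stayed at −1.57, and of the calls given here only that of POLN was lost.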
